A study of Mus musculus with 6 samples.

Results

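Smooth muscle contractile and cytoskeletal genes were followed in mouse aortic smooth muscle cells (MASMCs) with and without *Pdk4*, the gene of a mitochondrial kinase that inhibits pyruvate dehydrogenase. The set holds 35 genes out of 41721 genes in the count table. They were chosen by name for their place in the contractile apparatus, without a rule on their values. Earlier results of these data were known when they were chosen. All 35 have a row in the count table and 34 passed the filter on low counts. MASMCs were taken from the abdominal aortas of Pdk4fl/fl and Pdk4SMKO mice, with 3 libraries for each genotype, and all 6 libraries came from cells treated with Ang II, so no untreated level can be given here. Both genotypes carry *Pdk4* alleles with loxP sites around exons 4, 5 and 6. Pdk4SMKO mice also carry a Cre recombinase that tamoxifen switches on and that is driven by the *Myh11* promoter from a Y-linked transgene, so that deletion depends on the activity of that smooth muscle promoter. *Myh11* itself is one of the 35 genes. Per the study's methods, both genotypes received tamoxifen for 5 days at 6 weeks of age, cells were isolated at 10 weeks, used at passages 4 to 8 and serum-starved for 48 h, the mice shared a C57BL/6J background, and the Ang II dose in culture was 1 μM for 48 h. The labels name Ang II alone and do not say whether the 3 libraries of a genotype came from separate mice. The study calls them biological replicates without saying whether these were mice or cultures, so the p-values measure the spread between these libraries, whatever its source.

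Smooth muscle shortens when actin filaments, fixed to dense bodies and adhesion plaques by α-actinin, filamin and vinculin, are pulled by myosin whose regulatory light chain has been phosphorylated by myosin light chain kinase. Myosin phosphatase removes that phosphate. Many genes of this apparatus are transcribed through CArG boxes, the DNA element bound by serum response factor (SRF) with its cofactors myocardin and the myocardin-related transcription factors (MRTFs). In culture, smooth muscle cells are known to lose part of this program and to rely more on nonmuscle myosins, calponin paralogs and vimentin. One question of the study was how *Pdk4* bears on the contractile state of these cells.

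Because many genes of this apparatus are transcribed through SRF, the promoters of the members were searched for the CArG box on both strands. Only exact matches to CCWWWWWWGG, with W for A or T, were counted. RefSeq promoters of the GRCm38.p6 assembly, from 250 bases before to 50 bases after the start site, were matched for 31 of the 35 members. They number 37, since some genes have several start sites. *Myh11*, *Tagln*, *Rock1* and *Myocd* were not matched. A CArG box was found in 5 of these 37 promoters (13.5%), against 535 of 32851 promoters in the whole table (1.63%). The MCAT element CATTCC, a site of TEAD factors, was found on either strand in 11 (29.7%), against 14.7% of all promoters. The promoters of 4 members are shown from their first base to the base before the start site, with the CArG boxes in capitals. *Srf* (chr17:46556163-46556412, minus strand) has 2 boxes, *Cnn2* (chr10:79988350-79988599, plus strand) and *Vcl* (chr14:20929148-20929397, plus strand) have 1 each, and *Cnn1* (chr9:22099003-22099252, plus strand) is shown beside its paralog *Cnn2* because the 2 genes differed in direction below.
Srf: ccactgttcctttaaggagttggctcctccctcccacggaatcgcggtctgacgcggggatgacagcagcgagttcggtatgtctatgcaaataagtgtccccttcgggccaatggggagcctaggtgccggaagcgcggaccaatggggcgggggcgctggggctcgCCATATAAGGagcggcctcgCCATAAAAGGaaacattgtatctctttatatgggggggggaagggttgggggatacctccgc
Cnn2: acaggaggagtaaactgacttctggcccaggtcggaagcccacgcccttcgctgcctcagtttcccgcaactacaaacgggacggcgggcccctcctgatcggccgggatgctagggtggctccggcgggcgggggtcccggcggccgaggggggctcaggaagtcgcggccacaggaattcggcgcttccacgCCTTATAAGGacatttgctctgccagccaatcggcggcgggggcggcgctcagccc
Vcl: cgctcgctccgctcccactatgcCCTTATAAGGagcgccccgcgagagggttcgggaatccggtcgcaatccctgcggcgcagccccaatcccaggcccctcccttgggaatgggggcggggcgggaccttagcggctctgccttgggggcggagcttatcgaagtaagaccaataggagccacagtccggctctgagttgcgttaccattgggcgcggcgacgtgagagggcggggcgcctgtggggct
Cnn1: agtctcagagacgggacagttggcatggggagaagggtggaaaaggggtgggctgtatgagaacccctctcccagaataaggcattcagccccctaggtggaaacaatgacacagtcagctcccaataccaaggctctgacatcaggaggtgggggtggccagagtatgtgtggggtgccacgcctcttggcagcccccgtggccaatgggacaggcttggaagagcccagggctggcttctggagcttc
The boxes of *Srf* begin 82 and 62 bases before the start site, that of *Cnn2* 56 bases before it and that of *Vcl* 227 bases before it. The other members with a box were *Myl9* (CCTAATAAGG, 161 bases before the start site) and *Myl6* (CCTTATATGG, 50 bases before one of its start sites). A match is a description of the letters, and the absence of one in the *Cnn1* window says only that they are not in that window. Sites that depart from the exact pattern were not counted. The window of *Acta2*, which is not a member, had no match but held ccctatatgg and ccttgtttgg, each with a C or G among its inner letters.

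The libraries held 16526044 to 22481670 counts on genes. Levels are given as CPM (counts scaled to a common library total) after scaling by TMM, a method that sets libraries against each other through the genes that differ least. A count of 3, taken as the limit of detection and covering counting error only, stood for 0.132 to 0.227 CPM. *Pdk4* had 570, 639 and 421 counts in Pdk4fl/fl and 110, 182 and 141 in Pdk4SMKO libraries. Its log2 fold change was −2.34 (standard error 0.22, edgeR adjusted p = 4.5e-06). *Xist*, the RNA of the inactive X chromosome in female cells, had 3, 4 and 5 counts in Pdk4fl/fl and 610, 347 and 321 in Pdk4SMKO libraries, although the Cre transgene is Y-linked and the study describes its mice as male. The sex of the cultures and the genotype therefore cannot be told apart here, which touches every comparison below. Of 8 genes that define smooth muscle (*Myh11*, *Acta2*, *Tagln*, *Cnn1*, *Lmod1*, *Smtn*, *Myocd* and *Itga8*), all were detected in both genotypes. Their summed level was 786 to 811 CPM in Pdk4fl/fl and 724 to 954 CPM in Pdk4SMKO libraries. The sums hide single genes that moved in opposite directions. At the limits given below, 3 of the 8 were lower and 4 higher (87.5%, beside 59.3% of all genes tested).

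The contractile and cytoskeletal genes did not move together. Calponin 1, the transgelins, smoothelin and vimentin were lower in Pdk4SMKO cells, and the nonmuscle myosins, calponins 2 and 3, leiomodin, myosin light chain kinase, filamin A, *Rock2* and *Srf* were higher. The study adjusted for multiple tests by the method of Benjamini and Hochberg. Its limits were a p of 0.05 and a 2-fold change, and which p, raw or adjusted, had to pass is not spelled out. With those limits set on the edgeR adjusted p, 5 of the 34 tested members were lower and 13 were higher. These 18 are 52.9% of the members tested, beside 59.3% of all 14085 genes tested, of which 26.5% were lower and 32.8% higher. With an adjusted p under 0.05 alone, 10 members were lower and 16 higher, or 76.5%, beside 79.1% of all genes (37.1% lower and 42% higher). The 2 genotypes did not overlap in 26 of 35 members, beside 81.8% of all genes tested. The median log2 fold change was 0.06 over the members and 0.12 over all genes tested, and the median size of the change in either direction was 1.07 and 1.30. RNA from a culture is a sum over its cells, so that fewer cells of a type and less RNA per cell cannot be told apart.

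**Figure D1:**
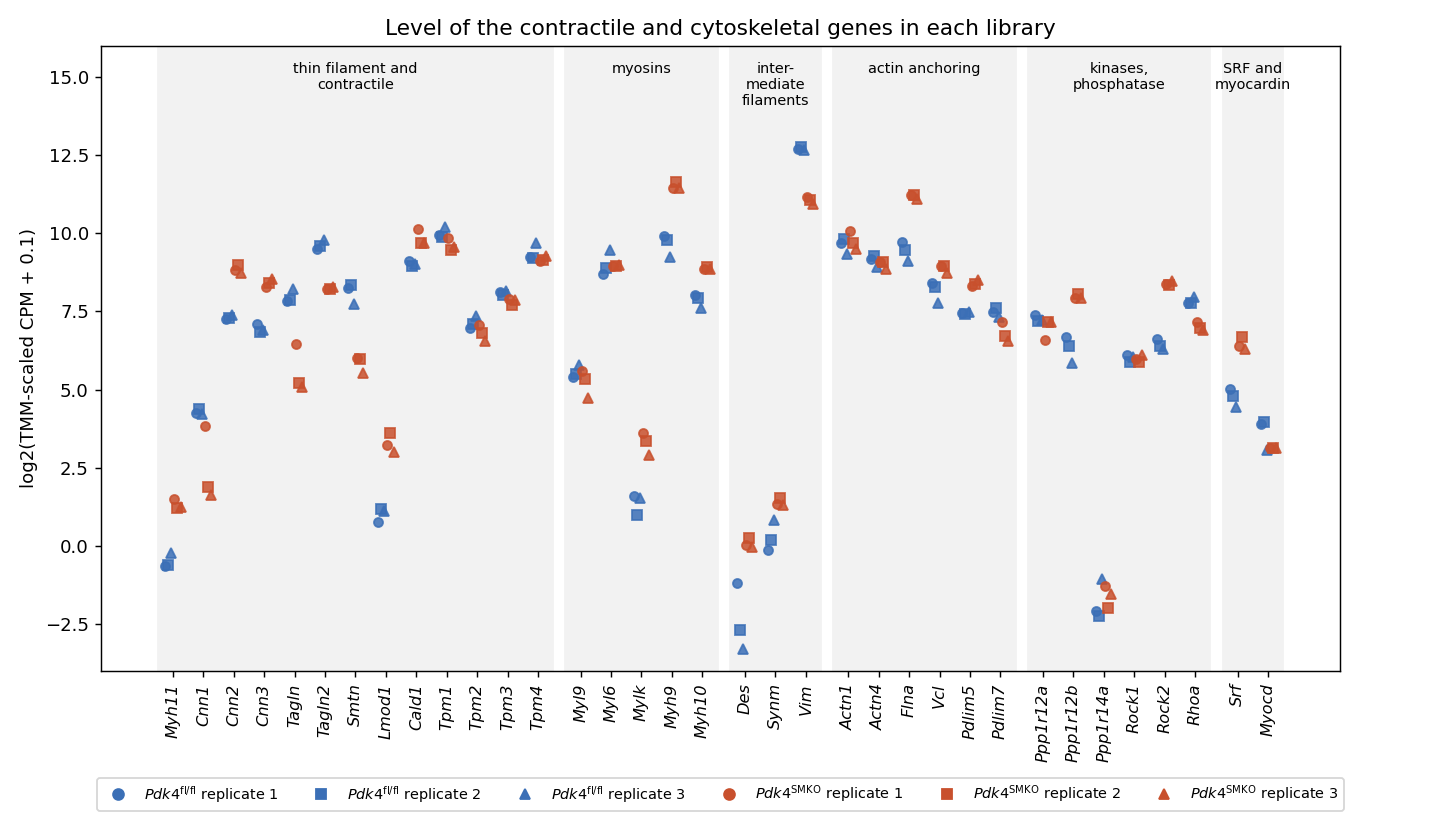
Level of each of the 35 genes in each of the 6 libraries, as log2 of TMM-scaled CPM with 0.1 added, grouped by role. Blue points are Pdk4fl/fl and red points Pdk4SMKO libraries, with a symbol for each replicate number. *Vim* lies highest in Pdk4fl/fl, *Cnn1* and *Tagln* show Pdk4SMKO replicate 1 apart from the other red points, and the points of *Rock1*, *Myl6* and *Actn4* overlap between genotypes.

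**Figure D2:**
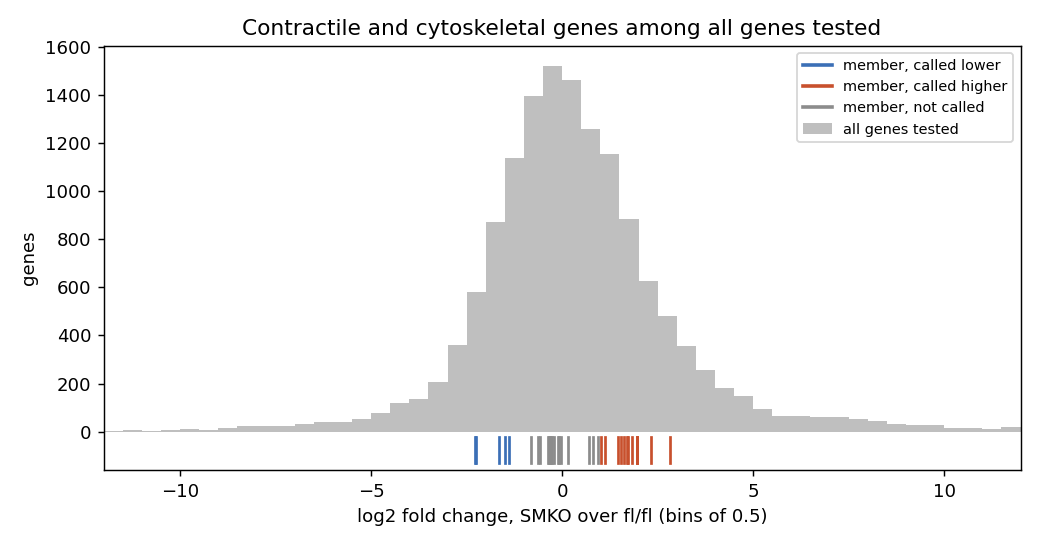
Number of genes by log2 fold change (Pdk4SMKO over Pdk4fl/fl) for all 14085 genes tested, in grey bars of width 0.5, with genes beyond 12 in either direction placed in the end bars. The ticks under the bars are the 34 tested members, which lie between −2.28 and 2.83 and inside the body of the distribution.

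The choice of scaling sets the zero of these fold changes. Without TMM factors, on library size alone, the median of all genes moved from 0.12 to 0.72 on the log2 scale. On that scaling 10 of the 34 tested members changed direction, none of them among the 18 called, and 3 members were lower and 16 higher. Once the median of all genes was subtracted, no member differed in direction between TMM and library size alone. That result follows from the subtraction, because the change of scaling moved every member by nearly the same amount as the median. It therefore cannot show which zero is right, and the directions that changed remain dependent on the scaling. All fold changes below are on the TMM scaling.

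**Figure D3:**
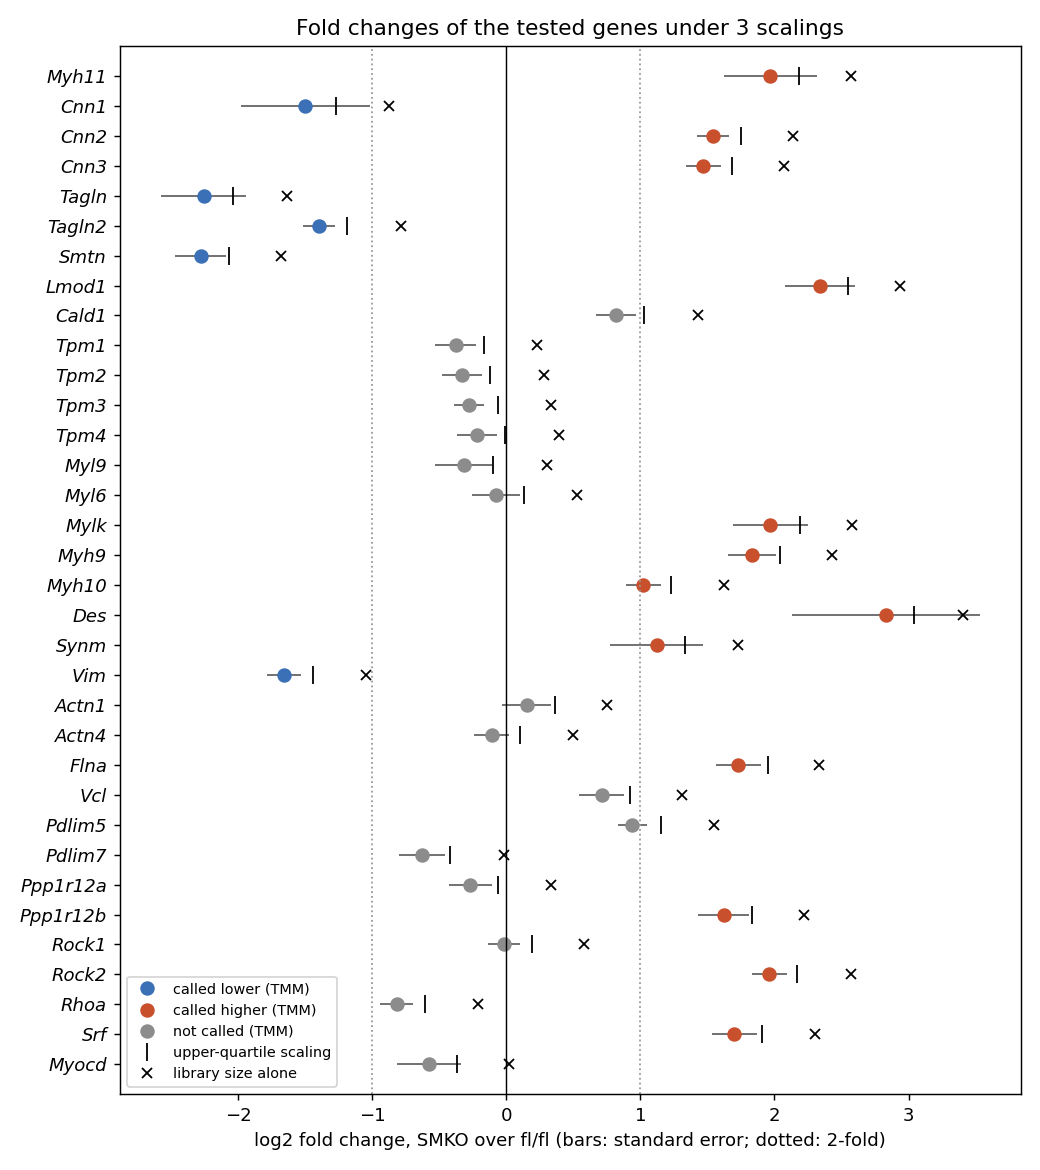
Log2 fold change of each tested member on TMM scaling (dots, with standard error bars), with upper-quartile scaling (vertical ticks) and with library size alone (crosses). Dotted lines mark a 2-fold change. The crosses lie to the right of the dots for every gene, and those of *Tpm1* to *Tpm4*, *Myl9*, *Myl6*, *Actn4*, *Ppp1r12a*, *Rock1* and *Myocd* fall on the other side of 0.

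Thin-filament regulators gave the lowest fold changes of the set. *Cnn1* encodes calponin 1, an actin-binding inhibitor of myosin ATPase that marks differentiated smooth muscle (MGP_C57BL6NJ_G0034967, chr9:20160962-20171496 in the coordinates of the table). It was at 19.1, 20.8 and 18.6 CPM in Pdk4fl/fl and at 14.0, 3.58 and 2.99 CPM in Pdk4SMKO libraries. All 3 Pdk4SMKO libraries lay below all 3 Pdk4fl/fl libraries, but replicate 1 was 4.27 times the mean of the other Pdk4SMKO libraries. The log2 fold change of *Cnn1* was −1.50 (standard error 0.48, edgeR adjusted p = 0.0155). Without Pdk4SMKO replicate 1 it was −2.56, and without Pdk4SMKO replicate 3 it was −1.13. On library size alone *Cnn1* was no longer called (−0.88, edgeR adjusted p = 0.123).

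*Tagln* encodes transgelin, an actin-bundling protein of the calponin family and an early marker of smooth muscle (MGP_C57BL6NJ_G0035237, chr9:45812374-45818808). Its levels were 227, 234 and 297 CPM in Pdk4fl/fl and 86.9, 37.1 and 34.0 CPM in Pdk4SMKO libraries. The genotypes did not overlap, and Pdk4SMKO replicate 1 again stood apart, at 2.44 times the mean of the other Pdk4SMKO libraries. The log2 fold change was −2.26 (standard error 0.32, edgeR adjusted p = 9.7e-05), and −2.82 without Pdk4SMKO replicate 1. The span of *Tagln* overlaps that of *Pcsk7* on the opposite strand, whose counts were 706, 1010 and 475 in Pdk4fl/fl and 827, 672 and 598 in Pdk4SMKO libraries. The use of strand in counting is not given in the sources used here, so reads of the 2 genes in the shared stretch cannot be told apart. *Tagln2*, the more widely expressed paralog, was at 727, 776 and 886 CPM in Pdk4fl/fl and 295, 300 and 313 CPM in Pdk4SMKO libraries. Here the 3 Pdk4SMKO libraries were close to each other and well below the Pdk4fl/fl libraries (log2 fold change −1.40, standard error 0.12, edgeR adjusted p = 2.8e-06), although on library size alone the fold fell short of 2 (−0.79).

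*Smtn* encodes smoothelin, a filament-associated protein of contractile smooth muscle (MGP_C57BL6NJ_G0018355, chr11:465742-488829), and had the lowest fold change of the members. It was at 304, 323 and 212 CPM in Pdk4fl/fl and at 63.7, 62.9 and 45.9 CPM in Pdk4SMKO libraries. The genotypes were far apart, with the mean in Pdk4fl/fl 4.87 times that in Pdk4SMKO (log2 fold change −2.28, standard error 0.19, edgeR adjusted p = 2.0e-06). Leaving out single libraries gave values from −2.46 to −2.14.

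Other contractile genes went the opposite way. *Cnn2* and *Cnn3*, calponins that are also found in nonmuscle cells, were higher in all Pdk4SMKO libraries. *Cnn2* was at 154, 155 and 168 CPM in Pdk4fl/fl and 451, 506 and 426 CPM in Pdk4SMKO libraries (log2 fold change 1.54, standard error 0.12, edgeR adjusted p = 1.2e-06). *Cnn3* was at 137, 114 and 121 CPM in Pdk4fl/fl and 310, 344 and 375 CPM in Pdk4SMKO libraries (log2 fold change 1.47, standard error 0.13, edgeR adjusted p = 2.5e-06). In both genes the values of a genotype were tight and the groups did not overlap, and unlike *Cnn1* neither set Pdk4SMKO replicate 1 apart (0.968 and 0.862 times the mean of the other Pdk4SMKO libraries).

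*Myh11*, the smooth muscle myosin heavy chain (MGP_C57BL6NJ_G0022958, chr16:11392836-11490775), was close to the limit of detection. It had 8, 10 and 10 counts in Pdk4fl/fl and 62, 44 and 46 counts in Pdk4SMKO libraries, or 0.533, 0.549 and 0.757 CPM against 2.72, 2.19 and 2.26 CPM. Every Pdk4SMKO library was above every Pdk4fl/fl library (log2 fold change 1.97, standard error 0.35, edgeR adjusted p = 0.000465), at a level that stayed under 3 CPM. *Lmod1*, leiomodin 1, which nucleates actin filaments in smooth muscle, was at 1.60, 2.14 and 2.04 CPM in Pdk4fl/fl and 9.35, 12.2 and 7.90 CPM in Pdk4SMKO libraries (log2 fold change 2.34, standard error 0.26, edgeR adjusted p = 1.5e-05). *Cald1*, caldesmon, an actin-binding brake on myosin, was at 560, 493 and 524 CPM in Pdk4fl/fl and 1140, 818 and 830 CPM in Pdk4SMKO libraries. It was higher at an adjusted p under 0.05 but short of 2-fold (log2 fold change 0.82, standard error 0.15, edgeR adjusted p = 0.000617), and past 2-fold with upper-quartile scaling (1.03) or library size alone (1.43).

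Tropomyosins, the coiled coils that lie along actin, differed little. Their log2 fold changes ran from −0.38 for *Tpm1* to −0.22 for *Tpm4* on TMM scaling, and all 4 were above 0, from 0.23 to 0.39, on library size alone. *Tpm1* was at 983, 950 and 1191 CPM in Pdk4fl/fl and 919, 712 and 763 CPM in Pdk4SMKO libraries (edgeR adjusted p = 0.0331). *Tpm3* was at 280, 259 and 286 CPM against 239, 210 and 232 CPM (edgeR adjusted p = 0.0442). The groups of both genes did not overlap but came close. *Tpm2* (edgeR adjusted p = 0.0742) and *Tpm4* (edgeR adjusted p = 0.202) overlapped between genotypes.

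Among the myosins, the nonmuscle heavy chains and the kinase rose and the light chains did not pass the test. *Myh9*, the heavy chain of nonmuscle myosin IIA (MGP_C57BL6NJ_G0022441, chr15:80961962-81044912), was at 969, 890 and 605 CPM in Pdk4fl/fl and 2819, 3186 and 2773 CPM in Pdk4SMKO libraries. The lowest Pdk4SMKO library was far above the highest Pdk4fl/fl library, and the ratio of means was 3.56 (log2 fold change 1.83, standard error 0.18, edgeR adjusted p = 7.0e-06). *Myh10*, the heavy chain of nonmuscle myosin IIB, was at 261, 245 and 195 CPM in Pdk4fl/fl and 461, 487 and 468 CPM in Pdk4SMKO libraries. Its log2 fold change of 1.02 (standard error 0.13, edgeR adjusted p = 5.6e-05) lay at the limit of 2-fold and was 0.98 with RLE factors or DESeq2 and 0.89 without Pdk4fl/fl replicate 3. *Mylk*, the myosin light chain kinase, was at 2.93, 1.87 and 2.80 CPM in Pdk4fl/fl and 12.1, 10.2 and 7.41 CPM in Pdk4SMKO libraries. The groups were separate at a low level (log2 fold change 1.97, standard error 0.28, edgeR adjusted p = 8.2e-05).

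The regulatory light chain gene *Myl9* was at 42.5, 44.8 and 55.0 CPM in Pdk4fl/fl and 47.9, 40.0 and 26.2 CPM in Pdk4SMKO libraries (log2 fold change −0.32, standard error 0.21, edgeR adjusted p = 0.186). The essential light chain gene *Myl6* was at 416, 477 and 701 CPM in Pdk4fl/fl and 494, 501 and 509 CPM in Pdk4SMKO libraries (log2 fold change −0.08, standard error 0.18, edgeR adjusted p = 0.678). Both overlapped between genotypes, and the direction of each was positive on library size alone. Pdk4fl/fl replicate 3 gave the highest value of both light chains and the lowest of both nonmuscle heavy chains. A separate row that the table describes by the same protein name as *Myl6* carried 4.25% as many counts.

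Intermediate filaments changed in opposite directions at very different levels. *Vim*, vimentin, the main intermediate filament of mesenchymal cells (MGP_C57BL6NJ_G0025772, chr2:11383017-11391785), was at 6605, 6988 and 6503 CPM in Pdk4fl/fl and 2284, 2141 and 1947 CPM in Pdk4SMKO libraries. It was the most abundant member in Pdk4fl/fl cells and was far lower in every Pdk4SMKO library (log2 fold change −1.66, standard error 0.13, edgeR adjusted p = 1.4e-06). *Des*, desmin, the muscle intermediate filament, had 5, 1 and 0 counts in Pdk4fl/fl and 21, 22 and 18 counts in Pdk4SMKO libraries (log2 fold change 2.83, standard error 0.70, edgeR adjusted p = 0.00383). With so few counts in Pdk4fl/fl this fold is poorly known, and it was 4.67 without Pdk4fl/fl replicate 1. *Synm*, synemin, which joins desmin or vimentin filaments, was at 0.800, 1.04 and 1.66 CPM in Pdk4fl/fl and 2.41, 2.79 and 2.35 CPM in Pdk4SMKO libraries. The groups did not overlap (log2 fold change 1.12, standard error 0.35, edgeR adjusted p = 0.0146), but the call was lost without Pdk4fl/fl replicate 1 (edgeR adjusted p = 0.0560) or without Pdk4SMKO replicate 2 (edgeR adjusted p = 0.0525).

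Of the 6 genes that crosslink or anchor actin, 1 was called (16.7%, beside 59.3% of all genes tested). *Flna*, filamin A, which joins actin filaments into networks and ties them to integrins, is X-linked (MGP_C57BL6NJ_G0036330, chrX:72178217-72206205). It was at 841, 712 and 550 CPM in Pdk4fl/fl and 2399, 2411 and 2185 CPM in Pdk4SMKO libraries. The groups were widely separated (log2 fold change 1.73, standard error 0.17, edgeR adjusted p = 5.3e-06). *Xist* moved with it, at 0.200 to 0.378 CPM against 15.7 to 26.8 CPM, and the part of X-chromosome dosage in the result was not tested.

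Among the others, 3 passed the adjusted p alone. *Pdlim5*, a PDZ-LIM protein that binds α-actinin, was at 174, 172 and 180 CPM in Pdk4fl/fl and 315, 334 and 361 CPM in Pdk4SMKO libraries (log2 fold change 0.94, standard error 0.11, edgeR adjusted p = 2.4e-05). It was past 2-fold with upper-quartile scaling (1.15), with library size alone (1.55) and among genes with at least 10 counts in every library (1.04). *Vcl*, vinculin, which couples talin to actin in adhesion plaques, was at 338, 309 and 217 CPM in Pdk4fl/fl and 492, 495 and 425 CPM in Pdk4SMKO libraries (log2 fold change 0.71, standard error 0.17, edgeR adjusted p = 0.00288, and 1.31 on library size alone). *Pdlim7*, a related PDZ-LIM protein, went down, from 177, 194 and 160 CPM to 144, 104 and 94.2 CPM (log2 fold change −0.63, standard error 0.17, edgeR adjusted p = 0.00539), but its fold change was −0.02 on library size alone. The α-actinin genes *Actn1* (0.15, edgeR adjusted p = 0.455) and *Actn4* (−0.11, edgeR adjusted p = 0.472) overlapped between genotypes.

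Among the regulators of myosin phosphatase, paralogs parted. *Rock2*, a kinase that phosphorylates the targeting subunit of the phosphatase (MGP_C57BL6NJ_G0020004, chr12:14775491-14882280), was at 97.1, 83.2 and 78.6 CPM in Pdk4fl/fl and 330.0, 323 and 356 CPM in Pdk4SMKO libraries. The ratio of means was 3.90, with both groups tight (log2 fold change 1.96, standard error 0.13, edgeR adjusted p = 3.0e-07). *Rock1*, its paralog, was at 68.1, 58.3 and 66.4 CPM in Pdk4fl/fl and 62.3, 58.3 and 69.2 CPM in Pdk4SMKO libraries, which overlap throughout (log2 fold change −0.02, standard error 0.12, edgeR adjusted p = 0.873). On library size alone *Rock1* was at 0.58, so its direction was not settled, whereas *Rock2* was called on every scaling tried.

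*Ppp1r12b*, a muscle-enriched myosin phosphatase targeting subunit, was at 102, 84.3 and 57.6 CPM in Pdk4fl/fl and 244, 265 and 243 CPM in Pdk4SMKO libraries (log2 fold change 1.62, standard error 0.19, edgeR adjusted p = 2.1e-05). *Ppp1r12a*, the widely expressed subunit, was at 166, 147 and 149 CPM against 96.8, 143 and 142 CPM (log2 fold change −0.27, standard error 0.16, edgeR adjusted p = 0.136). Its groups came close without overlapping, and Pdk4SMKO replicate 1 was the lowest library. *Rhoa*, the gene of a small GTPase, was lower in all Pdk4SMKO libraries, at 218, 216 and 249 CPM against 142, 124 and 120 CPM, but by less than 2-fold (log2 fold change −0.82, standard error 0.12, edgeR adjusted p = 0.000117, −0.21 on library size alone). *Ppp1r14a*, the phosphatase inhibitor CPI-17, had 2, 2 and 5 counts in Pdk4fl/fl and 7, 3 and 5 counts in Pdk4SMKO libraries and fell under the minimum count used to choose genes for testing. Without that minimum its log2 fold change was 0.27 (standard error 0.95, edgeR adjusted p = 0.818), and a difference was not detectable at this depth.

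*Srf* and its smooth muscle cofactor *Myocd* gave opposite signs. *Srf* (MGP_C57BL6NJ_G0024225, chr17:49668400-49677713) was at 32.4, 27.4 and 21.6 CPM in Pdk4fl/fl and 83.3, 103 and 79.3 CPM in Pdk4SMKO libraries. Every Pdk4SMKO library was above every Pdk4fl/fl library (log2 fold change 1.70, standard error 0.17, edgeR adjusted p = 7.6e-06). *Myocd* was at 14.9, 15.6 and 8.32 CPM in Pdk4fl/fl and 8.61, 8.71 and 8.73 CPM in Pdk4SMKO libraries. Pdk4fl/fl replicate 3 lay below all Pdk4SMKO libraries, so the groups overlapped despite an edgeR adjusted p of 0.0442 (log2 fold change −0.58, standard error 0.24), and the fold change was 0.02 on library size alone. Per length, the ratio of *Myocd* to *Srf* was 0.292, 0.363 and 0.245 in Pdk4fl/fl and 0.0658, 0.0540 and 0.0702 in Pdk4SMKO libraries, and such a ratio within a library does not depend on the scaling between libraries. Of the 5 members with a CArG box in the searched window, *Srf* and *Cnn2* were called higher, *Vcl* was higher at the adjusted p alone, and *Myl9* and *Myl6* did not pass the test.

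The other genes of the pathway were read from 5 lists, in which 69 of 79 genes were tested, 17 were lower and 20 higher (53.6%, beside 59.3% of all genes). Among 13 further SRF cofactors and partners, 4 were lower and 5 higher (69.2%). These included the MRTF genes, with *Mrtfa* (listed as *Mkl1*) at a log2 fold change of 1.24 and *Mrtfb* (listed as *Mkl2*) at 2.30. *Fhl1*, a LIM-domain protein, was at 2.48, whereas *Elk1*, a ternary complex factor that competes with myocardin for SRF, was at −1.59 and *Mef2d* at −1.61. *Mrtfa* fell short of 2-fold without Pdk4fl/fl replicate 3 (0.96), as did *Elk1* on library size alone (−0.98).

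Of 22 adhesion plaque genes, 4 were lower and 7 higher (50%, beside 59.3% of all genes tested). Among those called that reached a mean of 10 CPM in either genotype, the lowest were paxillin (*Pxn*, −2.62) and testin (*Tes*, −1.55). The highest were *Lims2* (4.85) and talin 1 (*Tln1*, 2.76). Paxillin and talin sit in the same plaque as vinculin, and *Tes* fell short of 2-fold on library size alone (−0.94). Of 11 further myosin and filament genes, 5 were lower and 3 higher (72.7%). Among those called that reached the same mean, the lowest were 2 genes of the tropomodulins, which cap the slow-growing ends of actin filaments. *Tmod1* was at 35.9, 44.8 and 34.4 CPM in Pdk4fl/fl and 0.395, 0.448 and 0.491 CPM in Pdk4SMKO libraries (log2 fold change −6.42), and *Tmod2* was at −2.15. Another tropomodulin gene, *Tmod3*, overlapped between the genotypes (log2 fold change −0.06, standard error 0.13, edgeR adjusted p = 0.655). Of the called genes at that mean, the cytoskeletal linker plectin (*Plec*, 2.22) and nestin (*Nes*, 2.15) were the highest.

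All 3 actins tested were higher, beside 32.8% of all genes tested. *Acta2*, smooth muscle α-actin, which the study used to check the purity of the cultures, was at 243, 188 and 268 CPM in Pdk4fl/fl and 768, 714 and 621 CPM in Pdk4SMKO libraries (log2 fold change 1.59, standard error 0.16, edgeR adjusted p = 6.6e-06). *Actb*, β-actin, was at 271, 223 and 246 CPM against 2337, 2490 and 2263 CPM (log2 fold change 3.26, standard error 0.14, edgeR adjusted p = 2.8e-08). *Actg2*, enteric smooth muscle actin, was near the limit of detection, with 0, 6 and 2 counts against 40, 33 and 46 counts. Relative to *Acta2* per length, *Tagln* was at 1.05, 1.40 and 1.24 in Pdk4fl/fl and 0.127, 0.0584 and 0.0615 in Pdk4SMKO libraries. *Smtn* relative to *Acta2* was at 0.509, 0.698 and 0.322 against 0.0337, 0.0358 and 0.0301. The ratios of *Tagln*, *Smtn* and also *Cnn1* to *Acta2* were lower in Pdk4SMKO libraries without overlap, whatever the scaling between libraries. Those of *Lmod1* and *Myh11* to *Acta2* were higher without overlap. For *Lmod1* the ratio was 0.00297 to 0.00513 in Pdk4fl/fl and 0.0055 to 0.0077 in Pdk4SMKO libraries. For *Myh11*, at few counts, it was 0.000588 to 0.000783 against 0.000823 to 0.000977.

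Shares within families describe the same data without any scaling between libraries. Each share is the level of a gene per kilobase of its length as listed in the table, over the sum of its family in that library. The sums themselves are on the TMM scaling and, unlike the shares, depend on it. TMM factors ran from 0.784 to 0.838 in Pdk4fl/fl and from 1.21 to 1.26 in Pdk4SMKO libraries. In the calponins, *Cnn1* made up 6.96%, 8.02% and 6.75% in Pdk4fl/fl and 2.03%, 0.470% and 0.423% in Pdk4SMKO libraries. The sum of the family rose from 114 ± 3.87 to 304 ± 15.4 CPM per kilobase (SD, n = 3 each), so that a larger calponin total held less *Cnn1*. *Tagln* made up 29.0%, 28.4% and 30.5% of the transgelins in Pdk4fl/fl and 27.9%, 14.0% and 12.5% in Pdk4SMKO libraries. In Pdk4SMKO replicate 1 the make-up of the transgelins was thus nearly that of Pdk4fl/fl cells, while their sum (197 CPM per kilobase) was close to that of the other Pdk4SMKO libraries (167 and 172) and far below the Pdk4fl/fl libraries (492 to 613).

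The balance of *Rock1* and *Rock2* shifted in all 3 Pdk4SMKO libraries. *Rock2* made up 41.9%, 41.9% and 37.4% in Pdk4fl/fl and 72.8%, 73.7% and 72.3% in Pdk4SMKO libraries. *Ppp1r12b* made up 12.3%, 11.5% and 8.07% of the phosphatase targeting subunits in Pdk4fl/fl and 36.4%, 29.6% and 28.0% in Pdk4SMKO libraries. On the TMM scaling the sum of the subunits overlapped between genotypes (50.7 ± 4.25 and 54.1 ± 8.21 CPM per kilobase, SD, n = 3 each). That overlap is stated for this scaling only. The PDZ-LIM genes also had overlapping sums on the TMM scaling, and the share of *Pdlim5* went from 35.2% ± 2.72 to 61.9% ± 6.81 (SD, n = 3 each). In the myosin heavy chains, *Myh9* went from 73.6% ± 1.92 to 83.2% ± 0.705 and *Myh10* from 26.2% ± 1.87 to 16.6% ± 0.692 (SD, n = 3 each), so that *Myh10* held a smaller share although its own level was higher. *Myh11* remained a trace of this family, at 0.0804% to 0.174% in Pdk4fl/fl and 0.113% to 0.156% in Pdk4SMKO libraries, and its shares overlapped. The shares of all 4 tropomyosins overlapped between genotypes.

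**Figure D4:**
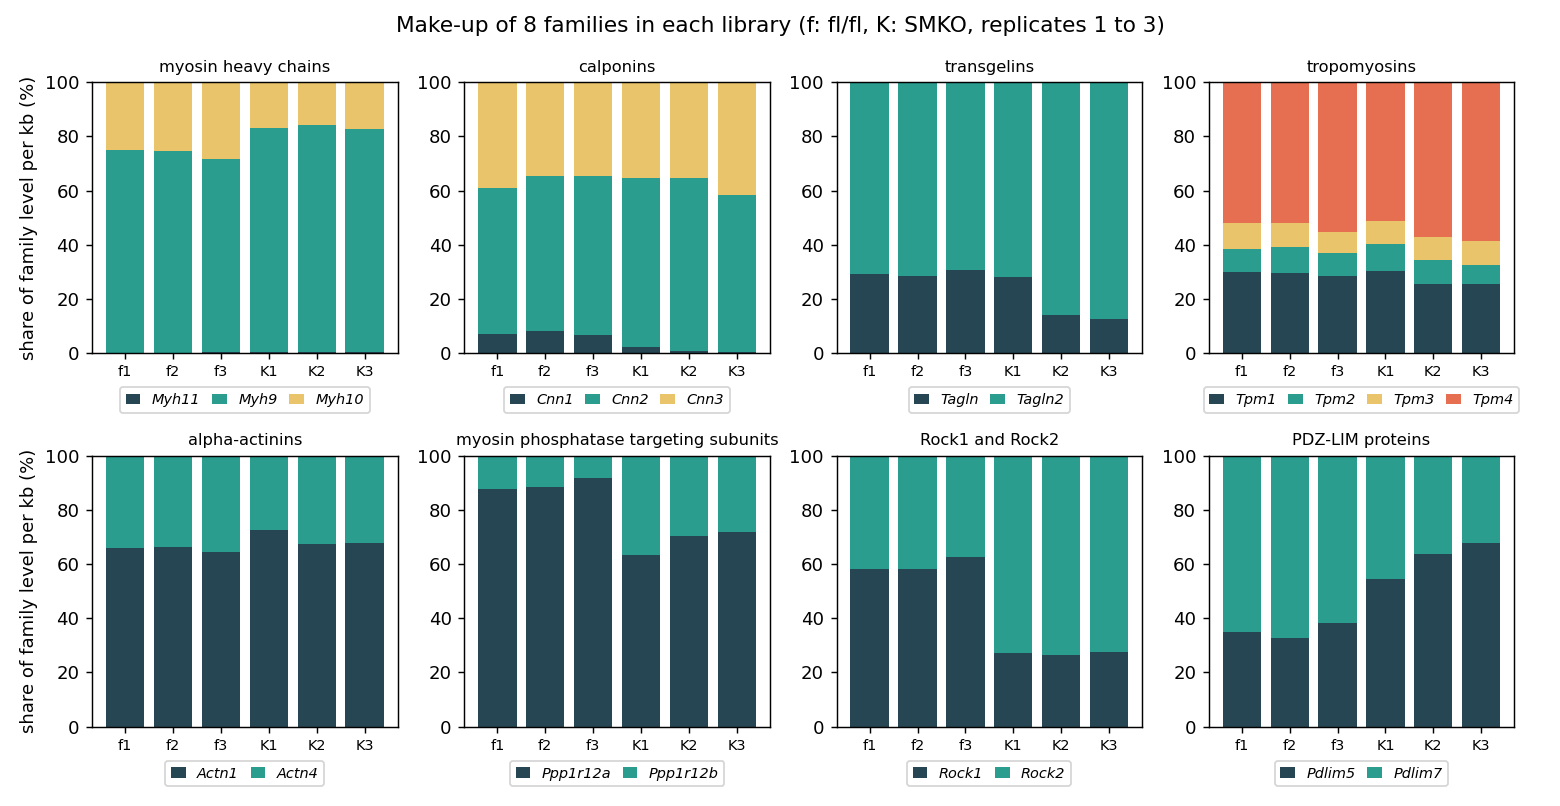
Share of each gene in the per-kilobase level of its family, as stacked bars that sum to 100%, for each Pdk4fl/fl library (f1 to f3) and each Pdk4SMKO library (K1 to K3). The *Rock1* and *Rock2*, phosphatase subunit and PDZ-LIM bars change colour balance in all 3 Pdk4SMKO libraries, the transgelin bar of K1 resembles the Pdk4fl/fl bars, and the tropomyosin bars stay alike.

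Per length, the members spanned several orders of magnitude, and their order differed between the genotypes. In Pdk4fl/fl cells *Vim* (1412 CPM per kilobase) came first, then *Myl6* (747) and *Tagln2* (383), which overlapped *Tpm4* (295). In Pdk4SMKO cells *Myl6* (704) came first, then *Vim* (448) and a run of *Tpm4* (253), *Flna* (248), *Actn1* (230) and *Myh9* (226) whose neighbours overlapped. By mean level *Myh9* moved from rank 12 to rank 6 and *Flna* from rank 9 to rank 4, while *Smtn* moved from rank 11 to rank 27 and *Tagln* from rank 7 to rank 20. In Pdk4fl/fl cells each member from rank 9 to rank 20 overlapped the next one down, so the order within that stretch is not resolved. *Mylk*, *Synm*, *Myh11* and *Des* held low places in both genotypes, at 0.250, 0.149, 0.0924 and 0.0345 CPM per kilobase in Pdk4fl/fl and 0.976, 0.320, 0.360 and 0.257 in Pdk4SMKO cells.

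**Figure D5:**
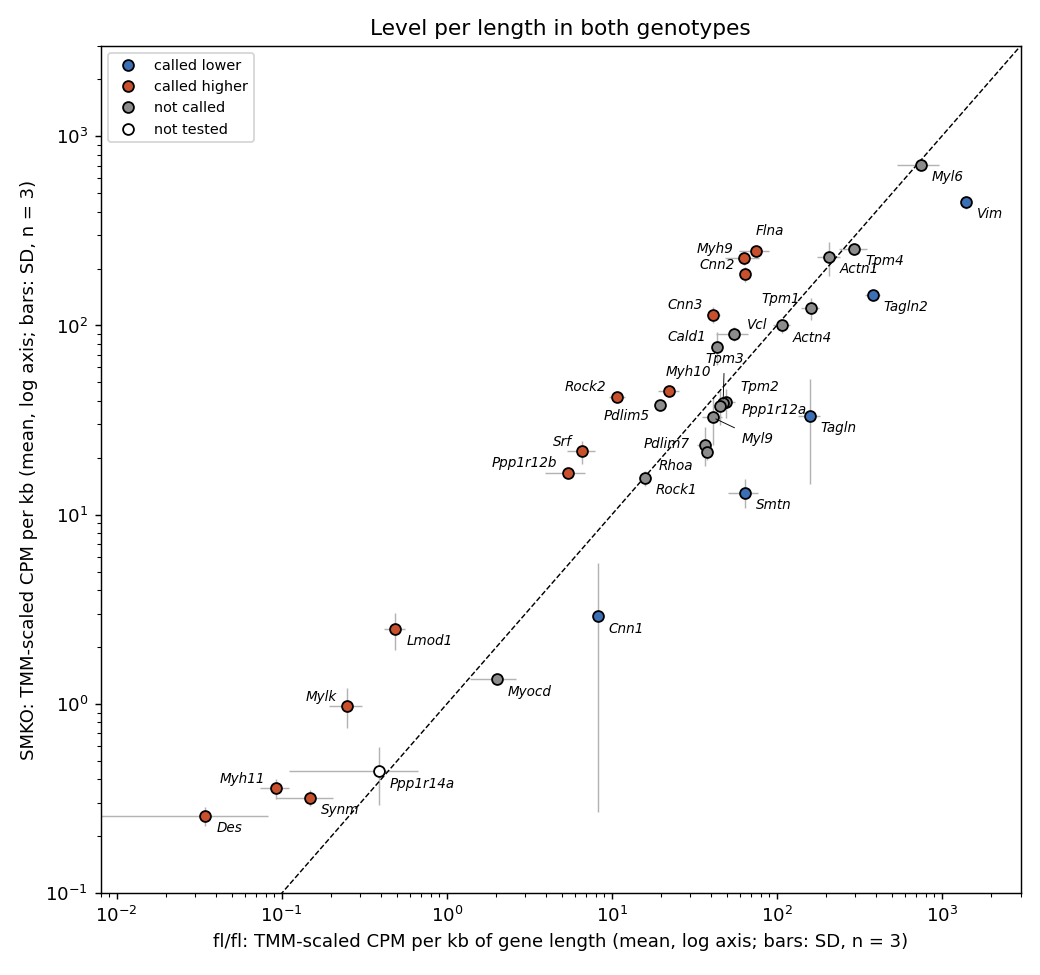
Mean level per kilobase of gene length in Pdk4SMKO (vertical) against Pdk4fl/fl cells (horizontal) for the 35 members, both on log axes, with SD bars over 3 libraries each. The lower bar of *Des* runs off the axis because its SD is larger than its mean. The dashed line marks equal levels. *Vim*, *Tagln2*, *Tagln*, *Smtn* and *Cnn1* lie below the line and the low genes *Des*, *Myh11*, *Synm*, *Mylk* and *Lmod1* above it.

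The 35 members took 1.29% ± 0.0634 of all counts in Pdk4fl/fl and 1.92% ± 0.110 in Pdk4SMKO libraries (SD, n = 3 each). *Vim* alone took 0.543% ± 0.0298 and 0.262% ± 0.0232 (SD, n = 3 each), and the rest without it 0.752% ± 0.0389 and 1.66% ± 0.0866. These are shares of raw counts and include no TMM factor. On the TMM scale the summed level of the members was 15625 to 16236 CPM in Pdk4fl/fl and 14754 to 16269 CPM in Pdk4SMKO libraries, which overlap.

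Pdk4SMKO replicate 1 differed from the other Pdk4SMKO libraries by more than 1.5-fold upward in 2 of the 34 tested members, *Cnn1* and *Tagln* (5.88%), beside 10.1% of all genes tested. It did so downward in no member, beside 6.89% of all genes tested. The median ratio over the members was 1.01. The set did not shift as a whole, and the share of members set apart upward was below that of all genes. Markers of other cell types set this library apart too, in both directions. The mesothelial marker *Msln* was at 610 CPM, against 292 and 328 CPM in the other Pdk4SMKO libraries. The fibroblast marker *Dcn* was at 245 CPM, against 554 and 504 CPM. Pdk4fl/fl replicate 3 stood apart within its genotype as well. The chi-square of the counts per degree of freedom was 56.9 and 53.8 between it and replicates 1 and 2, which gave 8.99 between them. For Pdk4SMKO replicate 1 it was 34.1 and 37.1, and 12.1 between replicates 2 and 3.

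Markers of other cell types moved with genotype and are given here because cultures can hold several cell types. The counts of higher and lower markers stand beside 32.8% higher and 26.5% lower of all genes tested. The summed level of 8 fibroblast markers was 145 to 182 CPM in Pdk4fl/fl and 576 to 1077 CPM in Pdk4SMKO libraries, with 4 of 7 tested genes higher and 1 lower. For 8 mesothelial markers it was 74.2 to 100 CPM and 723 to 1325 CPM, with 7 of 7 tested genes higher. Endothelial markers fell from 17.4 to 26.3 CPM to 2.94 to 5.66 CPM, with 3 of 3 tested lower, and *Cdh5* was at 0 or 1 count in every library. Macrophage markers summed to 21.4 to 38.0 CPM in Pdk4fl/fl and 9.71 to 30.5 CPM in Pdk4SMKO libraries, with 5 of 6 tested genes higher and 1 lower. The lower gene, *Cd68*, made up nearly all of the sum in Pdk4fl/fl, at 37.9, 34.5 and 21.3 CPM against 6.81, 3.14 and 2.94 CPM. *Adgre1*, *C1qa*, *C1qb* and *Tyrobp* were at 0 in all Pdk4fl/fl libraries and detected in all Pdk4SMKO libraries. Pericyte markers were at 15.3 to 35.7 CPM against 42.7 to 52.3 CPM (2 of 4 tested higher, 1 lower) and striated muscle markers at 8.10 to 9.53 CPM against 2.99 to 4.48 CPM (1 of 2 tested lower), with *Myh2*, *Myh6* and *Myl1* at 0 in every library. The genes *Vim*, *Myh9*, *Flna*, *Actb*, *Tagln2*, *Cnn2* and *Cnn3* are expressed in several of these cell types as well as in smooth muscle. The part of other cell types in the values of the contractile and cytoskeletal genes was not tested.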

How the data were processed

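RNA-seq libraries of 3 Pdk4fl/fl and 3 Pdk4SMKO MASMC samples were grouped by the genotype in the labels. The deposited table gives raw counts of reads for 41721 genes (16526044 to 22481670 counts per library), which the authors did not normalize. The study names the NEBNext kit and the labels the SMARTER kit. The submitters' processing notes name GRCm39, while the gene identifiers and coordinates are those of the C57BL/6NJ strain annotation; the aligner, the counter and the use of strand are not given in the sources used here. The study used DESeq2.

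Counts were filtered with filterByExpr, scaled by TMM and tested with the quasi-likelihood test of edgeR 4.0.16 in R 4.3.3 with genotype as the single term. Benjamini-Hochberg adjustment covered 14085 genes. The spread is shared by all 6 libraries. Scripts were tested on simulated data in which 200 genes were changed. Of these 172 were tested, and edgeR called all 172 with 2 false calls. In the real data 8349 genes were called, so the simulation cannot show how scaling or calling behave under so broad a difference. Calls needed an adjusted p under 0.05 and a change of 2-fold or more. An exact two-sided permutation test of single genes cannot give a p under 0.1 with 3 against 3 and was not used for calls. Alternatives were other scalings (RLE, upper-quartile, library size alone), DESeq2 1.42.0, no filter, at least 10 counts in every library, other limits, a replicate block, and leaving out each library. The fold less the median of all genes was added after the values were seen.

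The members and lists were chosen with earlier results of these data known. Named genes are all members, *Pdk4*, *Acta2*, *Mrtfa* and *Mrtfb*, and from each other list the 2 lowest and 2 highest called genes that reached a mean of 10 CPM in either genotype without overlap. *Actg2*, *Xist*, *Pcsk7*, *Tmod3*, *Cd68*, *Msln*, *Dcn* and markers at 0 were named after their values were seen. *Actg1* was not found by name in the table. No 2 libraries of a genotype agreed within sampling noise. The genes of 1 of the 5 other lists are not reported here one by one.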

Additional observations from a re-analysis of the deposited data

How the results depend on the processing

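On library size alone, 2390 genes of the table were called lower in place of 3733 (6184 higher in place of 4616), 3 members in place of 5, 4 members in place of 10 at an adjusted p alone, and 7 other pathway genes in place of 17, which follows from the shift of the median from 0.12 to 0.72. With that shift removed, an alternative chosen after the values were seen, 4 members were lower and 12 higher. Log2 fold changes that turned sign on library size alone were those of *Tpm1* (0.23), *Tpm2* (0.28), *Tpm3* (0.33), *Tpm4* (0.39), *Myl9* (0.30), *Myl6* (0.53), *Actn4* (0.50), *Ppp1r12a* (0.33), *Rock1* (0.58) and *Myocd* (0.02). With upper-quartile factors *Myl6* (0.13), *Actn4* (0.10) and *Rock1* (0.19) turned. With at least 10 counts in every library *Myl6* (0.02) and *Rock1* (0.08) turned, and without a filter *Rock1* (0.03). Leaving out single libraries turned *Myl6* (−0.23 to 0.15, above 0 without Pdk4fl/fl replicate 3), *Actn1* (−0.01 to 0.28, below 0 without Pdk4SMKO replicate 1) and *Rock1* (−0.08 to 0.04, above 0 without Pdk4fl/fl replicate 1 or Pdk4SMKO replicate 2). None of these was called, and the cause was not tested. With each library left out, 5 members were called lower in every case and 12 to 13 higher, and at an adjusted p alone 7 to 10 were lower and 15 to 16 higher, while 15 to 18 other pathway genes were lower and 18 to 21 higher. Of 440 single-gene values over the members, 407 kept their direction and their call, 7 lost a call, 6 gained one and 20 turned sign. A call here needed the adjusted p and the 2-fold limit together, so crossings of the adjusted p alone are not counted. With upper-quartile factors *Tpm1* (edgeR adjusted p = 0.314) and *Tpm3* (edgeR adjusted p = 0.623) no longer passed it. Same-numbered libraries of the 2 genotypes correlated in their deviations from the group means by 0.0505, 0.113 and 0.261, and not every library correlated best with its own number. A pairing by number was neither shown nor excluded by these few values, and the main fit did not use one. With the replicate block, 5 members were lower and 13 higher, and 3704 and 4577 genes across the table. Genes near the limit of detection (*Des*, *Myh11*, *Synm*, *Ppp1r14a*) are limited by depth.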
